A study of Homo sapiens with 4 samples.

Results

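The genes of cholesterol and fatty acid synthesis were taken from the gene count table by symbol, as 32 named genes matched to their Ensembl identifiers, of 20348 genes in all. The list holds 7 enzymes of the mevalonate arm, 11 of the squalene and sterol arm, 5 SREBP regulators and sterol carriers, and 9 enzymes of acetyl-CoA supply and fatty acid synthesis. The rule uses symbols and no measured value, but the genes were chosen with earlier results of these data known. RNA came from K562, a human line from chronic myeloid leukemia with erythroid and megakaryocytic features, and from THP-1, a human line from acute monocytic leukemia. According to the methods of the study each line was kept for 72 h in DMSO, the solvent control, or in 100 nM periplocin, a cardiac glycoside from Cortex periplocae. The labels title the controls as blank, and the library names call them DMSO. Each of the 4 conditions had 1 library, so no difference below has a replicate check.

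Cells make cholesterol from acetyl-CoA through mevalonate, isoprenoid diphosphates, squalene and lanosterol, and they make fatty acids from the same acetyl-CoA through malonyl-CoA and palmitate. Much of both pathways is transcribed under the sterol regulatory element-binding proteins (SREBPs), membrane-bound factors that SCAP escorts out of the endoplasmic reticulum when sterols are scarce. INSIG proteins hold SCAP back when sterols are plentiful, and INSIG1 is itself a target of the SREBPs. Growing leukemia cells need both products for membranes.

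The promoter sequences of 5 genes are given first. Of these, 4 were among the 6 genes more than 2-fold higher with periplocin in K562. SREBF2 encodes a factor that acts on such sequences. Each is the 250 bases before a RefSeq transcription start on GRCh38.p14, read 5′ to 3′ on the strand of the gene. Capitals mark the sterol regulatory element (SRE, TCACNCCAC), its shorter core CACNCCA, and the NF-Y box CCAAT, or the reverse complement of these.
SREBF2, chr22:41832855-41833104, plus strand: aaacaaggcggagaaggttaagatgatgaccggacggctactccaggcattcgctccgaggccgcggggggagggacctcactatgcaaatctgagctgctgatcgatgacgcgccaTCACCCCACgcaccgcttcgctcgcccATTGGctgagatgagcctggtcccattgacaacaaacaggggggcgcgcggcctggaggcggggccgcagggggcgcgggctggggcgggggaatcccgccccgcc
INSIG1, chr7:155297628-155297877, plus strand: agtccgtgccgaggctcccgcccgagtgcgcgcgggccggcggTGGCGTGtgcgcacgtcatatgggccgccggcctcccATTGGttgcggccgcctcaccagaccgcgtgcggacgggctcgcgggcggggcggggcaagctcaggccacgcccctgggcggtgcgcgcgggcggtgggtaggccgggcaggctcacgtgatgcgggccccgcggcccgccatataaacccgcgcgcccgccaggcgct
MSMO1, chr4:165327419-165327668, plus strand: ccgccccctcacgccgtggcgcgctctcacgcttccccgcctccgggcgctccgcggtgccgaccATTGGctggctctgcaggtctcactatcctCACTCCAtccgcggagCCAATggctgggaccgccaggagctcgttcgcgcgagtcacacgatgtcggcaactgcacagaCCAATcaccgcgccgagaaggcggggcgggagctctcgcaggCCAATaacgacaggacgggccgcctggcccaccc
HMGCS1, chr5:43313413-43313662, minus strand: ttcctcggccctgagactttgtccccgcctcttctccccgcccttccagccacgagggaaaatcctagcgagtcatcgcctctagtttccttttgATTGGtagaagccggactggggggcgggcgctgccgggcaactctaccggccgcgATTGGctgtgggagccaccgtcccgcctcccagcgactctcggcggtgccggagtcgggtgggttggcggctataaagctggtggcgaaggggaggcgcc
LSS, chr21:46228775-46229024, minus strand: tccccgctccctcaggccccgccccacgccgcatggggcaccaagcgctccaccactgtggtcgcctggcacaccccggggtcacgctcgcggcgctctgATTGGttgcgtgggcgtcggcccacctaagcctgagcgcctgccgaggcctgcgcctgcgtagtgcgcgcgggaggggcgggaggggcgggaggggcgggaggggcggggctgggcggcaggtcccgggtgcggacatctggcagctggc

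The promoter of SREBF2 held the full SRE, TCACCCCAC, beginning 133 bases before the start, with an NF-Y box 106 bases before it. In MSMO1 the shorter core CACTCCA began 155 bases before the start, among NF-Y boxes at 185, 139, 76 and 34 bases. INSIG1 had the core on the other strand at 207 bases and an NF-Y box at 170. HMGCS1 had NF-Y boxes at 155 and 100 bases, and LSS had 1 at 150, with neither form of the SRE in these windows. Another RefSeq start of HMGCS1, with the bases before it at chr5:43313182-43313431, had neither form of the SRE and no NF-Y box. ACSS1 and ELOVL6, also more than 2-fold higher in K562, are not shown. Their windows held neither form of the SRE and no NF-Y box. A match of letters is a description and not a binding site.

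Windows from 250 bases before to 50 bases after the start were held for 28 of the 32 genes, and both strands were searched. The NF-Y box CCAAT was found in 21 of the 28 genes (75%), against 39.7% of 27305 genes with a window and 43.5% of 10418 expressed ones. The Sp1 box GGGCGG was found in 27 genes (96.4%), all but NSDHL, against 48.3% and 76.3%. The shorter core CACNCCA, a motif added after the full one had been counted, was found in 13 genes (46.4%), against 20.6% and 21.4%. It lies inside the full SRE, which only SREBF2 held among these 28 genes (3.57%), against 1.39% and 1.47%. The E-box CACGTG was found in LSS, SC5D, INSIG1 and SCAP (14.3%), against 8.77% and 12.7%. The shares of the NF-Y box, the Sp1 box and the shorter core were thus larger in these genes than in either set of all genes. That of the full SRE rests on 1 gene, and that of the E-box was near the share of expressed genes. A gene with several windows was counted if any of them held the motif, and no test was made of these shares.

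Library totals were between 16381149 and 20622694 counts. All 7 erythroid markers were at 1 CPM (counts scaled to a library total of 1000000) or more in both K562 libraries, and 8 and 7 of the 8 monocytic markers were so in THP-1 DMSO and THP-1 periplocin. In K562 DMSO and K562 periplocin 4 and 5 of the monocytic markers also reached 1 CPM. They summed to 91.4 and 89.0 CPM there, against 951 and 1068 CPM in THP-1. Markers of other cell types summed to between 48.4 and 606.7 CPM, nearly all of it in THP-1 from PECAM1, with MS4A1 at 0 in all 4 libraries. In K562 most of it came from EPCAM, with 743 and 737 counts. The erythroid markers summed to 2025 CPM in K562 DMSO and 7805 CPM in K562 periplocin, and mitochondrially encoded genes took 5.62% and 2.07% of the counts, against 5.24% and 3.93% in THP-1. These values moved with the drug beside the ratios below, and their part in those ratios was not tested. In bulk RNA, fewer cells of a type and less RNA per cell cannot be told apart.

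With periplocin most of these genes were higher in K562 and lower in THP-1. The 32 genes together made up 3897 CPM in K562 DMSO and 5832 CPM in K562 periplocin, a 1.497-fold higher sum. In THP-1 their sum was 5105 CPM in DMSO and 2406 CPM in periplocin, 0.471 of the control. The ratio of each gene was taken between the libraries of a line after TMM scaling, which sets the bulk of genes to no change, and is given as log2 with a 95% interval from counting error only. A gene was called past the fold at a log2 ratio of at least 1 in size, which is 2-fold. Only genes that averaged 1 CPM or more over the pair were counted.

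In K562, 6 of the 32 genes were past the fold upward (18.8%) against 8.83% of 11862 genes, and 0 were past it downward against 11.5%. The 6 were HMGCS1, LSS, MSMO1, INSIG1, ACSS1 and ELOVL6. The median log2 ratio of the 32 genes was 0.57 and that of all genes -0.01, and 27 of the 32 (84.4%) were above 0 against 49.2% of all genes. The counting interval lay above 0 for 25 genes, below it for 2 and across it for 5. Without mitochondrially encoded genes in the library totals 5 genes passed, since MSMO1 then came to 0.9999.

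In THP-1, 31 of the 32 genes reached 1 CPM, and 15 were past the fold downward (48.4%) against 10.4% of 12341 genes, while 0 were past it upward against 8.01%. The 15 were ACAT2, MVK, IDI1, SQLE, LSS, CYP51A1, TM7SF2, MSMO1, DHCR7, SREBF2, INSIG1, ACACA, FASN, SCD and FADS2. The median log2 ratio was -0.999 over the 31 genes and -0.02 over all genes, and 29 of the 31 (93.5%) were below 0 against 51.5%. The interval lay below 0 for 27 genes and across it for 4. In the genes that overlap no other coding gene and have whole counts, 9 of the 21 tested in THP-1 passed downward and 6 of the 22 tested in K562 upward, with medians of -0.95 and 0.62.

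**Figure D1:**
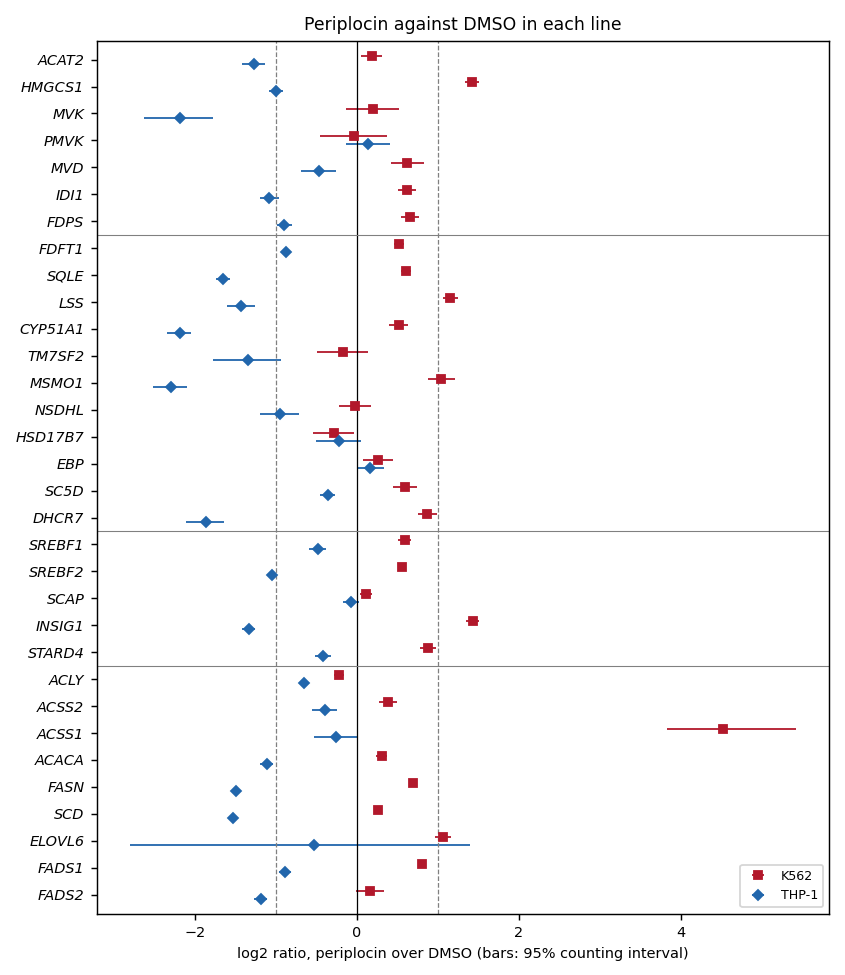
Log2 ratio of periplocin over DMSO for each of the 32 genes, with K562 as red squares and THP-1 as blue diamonds. Bars are 95% counting intervals, dashed lines mark 2-fold, and grey lines part the 4 groups of genes. Most red squares sit to the right of 0 and most blue diamonds to the left, while PMVK, HSD17B7, EBP and ELOVL6 have overlapping bars.

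The mevalonate arm carries acetyl-CoA to farnesyl diphosphate. The summed level of its 7 genes was 315 and 561 CPM in K562 DMSO and periplocin, and 561.9 and 282 CPM in THP-1 DMSO and periplocin. The sum in treated K562 was thus close to that in untreated THP-1, and the sum in treated THP-1 was below that in untreated K562. HMGCS1, which forms HMG-CoA and lies at chromosome 5, 43289395 to 43313512, had 1449 counts in the DMSO and 3944 in the periplocin library of K562, and 3951 and 1685 in those of THP-1. It was 2.67-fold higher in K562 (log2 1.42, interval 1.33 to 1.51). In THP-1 its log2 ratio was -0.999 (-1.08 to -0.92), a fold of 1.998 that did not reach the threshold, and it passed with scaling by library totals alone. It was the only gene of this arm past the fold in K562.

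MVK, the kinase that first phosphorylates mevalonate, had 145, 169, 305 and 57 counts in the same order of libraries. Its THP-1 log2 ratio of -2.18 (-2.62 to -1.78) was the lowest of this arm, and its K562 ratio of 0.19 had an interval across 0. ACAT2, which joins acetyl-CoA into acetoacetyl-CoA, had 916, 1058, 1620 and 571 counts, with log2 ratios of 0.18 in K562 and -1.27 in THP-1. Both genes overlap another coding gene on the opposite strand, MMAB and TCP1. Whether reads were counted by strand is not given in the sources used here. ACAT2 also overlaps a further annotated coding gene on that strand, and its deposited values were not whole in any of the 4 libraries. IDI1, which isomerises isopentenyl diphosphate, had 1041, 1624, 2072 and 835 counts and log2 ratios of 0.61 and -1.08. All 3 of these genes were past the fold in THP-1 and within it in K562.

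FDPS, the farnesyl diphosphate synthase, had 1163, 1864, 2934 and 1344 counts, with log2 ratios of 0.65 and -0.90. MVD, which decarboxylates the diphosphate of mevalonate, had 342, 537, 473 and 291 counts, with log2 ratios of 0.62 and -0.47. PMVK, the second kinase of the arm, had 100, 99, 232 and 217 counts, and its log2 ratios of -0.04 and 0.13 both had intervals across 0. PMVK thus stood apart from its neighbours in the pathway. Its raw counts were the lowest of the arm in K562, but per kilobase of the longest transcript MVK was lower there.

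The squalene and sterol arm turns farnesyl diphosphate into squalene, closes the ring to lanosterol and trims it to cholesterol. Its 11 genes summed to 755 and 1182 CPM in K562 DMSO and periplocin, and to 1079 and 492 CPM in THP-1. Past the fold upward in K562 were 2 of the 11 against 8.83% of all genes, and downward in THP-1 6 of the 11 against 10.4%. MSMO1, which oxidises methyl groups of the ring, lies at chromosome 4, 165327623 to 165343160, and had 424 counts in the DMSO and 890 in the periplocin library of K562, and 1250 and 216 in those of THP-1. It was 2.06-fold higher in K562 (log2 1.04, interval 0.87 to 1.21) and 4.925-fold lower in THP-1 (log2 -2.30, interval -2.52 to -2.09). Its THP-1 ratio was the lowest of the 31 genes tested there.

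LSS, the cyclase that closes the ring, lies at chromosome 21, 46188141 to 46228824, and had 1401, 3176, 1168 and 369 counts in the same order. It was 2.23-fold higher in K562 (log2 1.15, interval 1.06 to 1.25) and 2.70-fold lower in THP-1 (log2 -1.43, interval -1.60 to -1.26). Unlike MSMO1, it was lower in THP-1 DMSO than in K562 DMSO. CYP51A1, which removes a methyl group from lanosterol, had 996, 1451, 2372 and 443 counts, with log2 ratios of 0.52 and -2.19 (-2.34 to -2.04). CYP51A1 overlaps other annotated coding genes and its deposited values were not whole in any of the 4 libraries, so they hold estimated shares of reads.

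DHCR7, which carries out a last reduction to cholesterol, had 963, 1793, 805 and 188 counts, with log2 ratios of 0.87 in K562 and -1.87 (-2.10 to -1.64) in THP-1. SQLE, the epoxidase that is a slow step of the arm, had 3170, 4908, 5459 and 1483 counts, 1.52-fold higher in K562 and 3.14-fold lower in THP-1. TM7SF2, a sterol reductase, had 182, 164, 197 and 66 counts, with a THP-1 log2 ratio of -1.34 (-1.77 to -0.94) and a K562 interval across 0 (-0.49 to 0.14). These 3 genes were past the fold in THP-1 and within it in K562.

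FDFT1, the squalene synthase, had 3461, 5038, 7252 and 3374 counts, with log2 ratios of 0.52 and -0.87. SC5D, a sterol desaturase, had 615, 946, 2439 and 1618 counts, with log2 ratios of 0.59 and -0.36. NSDHL, a dehydrogenase that acts with MSMO1, had 421, 422, 452 and 199 counts, a K562 log2 ratio of -0.02 and a THP-1 one of -0.95. FDFT1 and SC5D had opposite signs in the lines, and the K562 interval of NSDHL held 0 (-0.22 to 0.18), with a sign that turned to 0.0034 under DESeq2 size factors. HSD17B7, the ketosteroid reductase of the same steps, had 286, 239, 258 and 188 counts, with log2 ratios of -0.28 and -0.23. EBP, which moves a double bond of the ring, had 445, 543, 598 and 571 counts, with log2 ratios of 0.26 and 0.16. These last genes had close ratios in the lines, with differences of -0.06 and 0.10 whose intervals held 0.

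**Figure D2:**
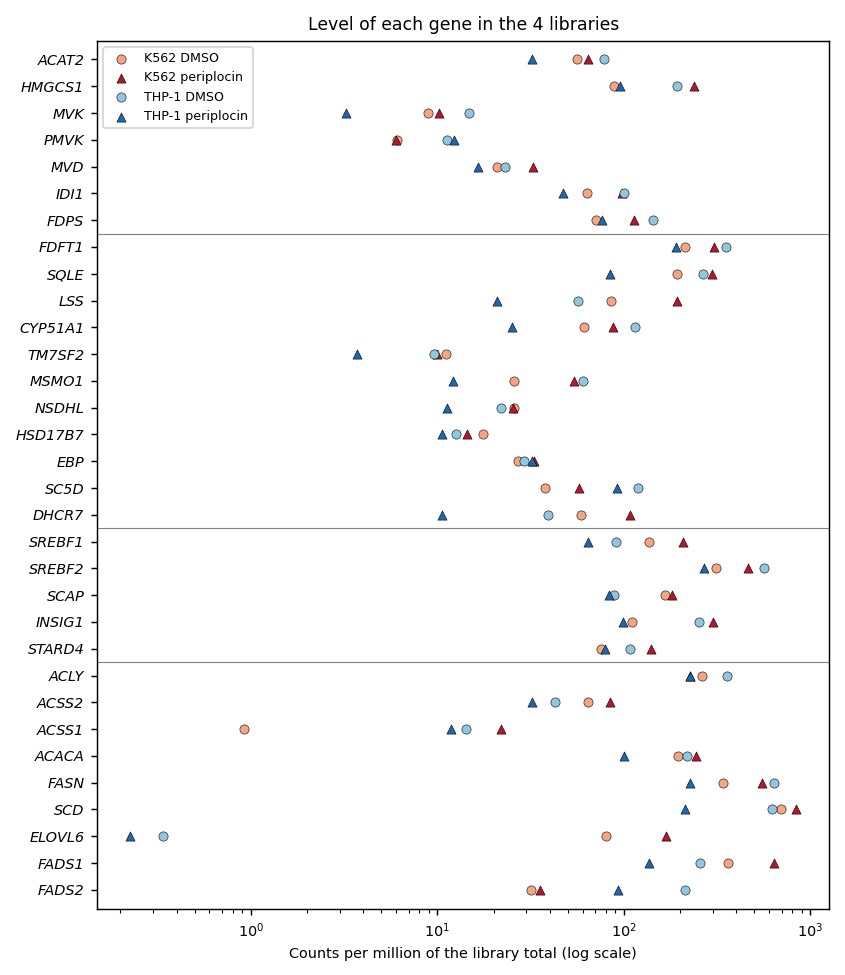
Level of each of the 32 genes in the 4 libraries, in CPM on a log axis, with DMSO as circles and periplocin as triangles, K562 in red and THP-1 in blue. For most genes the dark blue triangle is the leftmost point, and ACSS1 in K562 DMSO and ELOVL6 in THP-1 stand far to the left.

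The 5 regulators include the SREBP genes themselves. They summed to 801 and 1289 CPM in K562 DMSO and periplocin, and to 1103 and 596 CPM in THP-1. INSIG1, at chromosome 7, 155297776 to 155310235, had 1805 counts in the DMSO and 4949 in the periplocin library of K562, and 5212 and 1761 in those of THP-1. It was 2.69-fold higher in K562 (log2 1.43, interval 1.35 to 1.51) and 2.52-fold lower in THP-1 (log2 -1.33, interval -1.41 to -1.26). In raw counts the treated library of each line was thus near the untreated library of the other, but library totals differed. In CPM, K562 periplocin was at 298.8 and THP-1 DMSO at 252.7. THP-1 periplocin was at 99.4 CPM and K562 DMSO at 110.2.

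SREBF2, the SREBP gene linked mainly to cholesterol synthesis, at chromosome 22, 41833079 to 41907308, had 5124, 7660, 11639 and 4781 counts. Its log2 ratio was 0.55 (0.50 to 0.60) in K562 and -1.05 (-1.10 to -1.0045) in THP-1, where it was past the fold. SREBF1, linked mainly to fatty acid synthesis, had 2237, 3424, 1874 and 1140 counts, with log2 ratios of 0.59 and -0.49, within the fold in both lines. RAI1 overlaps SREBF1 on the opposite strand, and TM7SF2, ACACA and ACSS2 overlap VPS51, C17orf78 and GGT7. STARD4, a soluble carrier of cholesterol between membranes, had 1229, 2303, 2209 and 1407 counts, with log2 ratios of 0.88 and -0.42. SCAP, the escort of the SREBPs, had 2726, 3003, 1819 and 1471 counts, with log2 ratios of 0.11 and -0.08. SCAP had the ratio nearest 0 of the 5 in each line.

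The fatty acid arm had the most counts of the 4 groups. Its 9 genes summed to 2026 and 2800 CPM in K562 DMSO and periplocin, and to 2361 and 1037 CPM in THP-1. FASN, the synthase that builds palmitate, had 5532 counts in the DMSO and 9069 in the periplocin library of K562, and 13196 and 3984 in those of THP-1. It was 1.61-fold higher in K562 and 2.82-fold lower in THP-1 (log2 -1.50, interval -1.55 to -1.45). SCD, which puts the double bond into stearate and palmitate, had 11343, 13867, 12782 and 3759 counts, with log2 ratios of 0.26 and -1.54 (-1.59 to -1.48). SCD had about the same level in the untreated lines, with a log2 ratio of -0.04 between them.

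ACACA, the carboxylase that makes malonyl-CoA, had 3198, 4031, 4478 and 1767 counts, with log2 ratios of 0.31 and -1.11. FADS2, a desaturase of polyunsaturated fatty acids, had 520, 591, 4400 and 1647 counts, with log2 ratios of 0.16 (-0.01 to 0.33) and -1.19 (-1.27 to -1.11). FADS1, the desaturase that acts after it, had 5908, 10505, 5248 and 2421 counts, with log2 ratios of 0.80 and -0.89. FADS1 and FADS2 overlap on opposite strands of chromosome 11, at 61799625 to 61829318 and 61792980 to 61867354, so without strand in the counting their reads cannot be told apart there. FADS2 also overlaps FEN1, a coding gene on its own strand, where counting by strand would not part the reads. ACACA and FADS2 were past the fold in THP-1, and FADS1 was within it in both lines.

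ACSS1, the mitochondrial acetyl-CoA synthetase, at chromosome 20, 25006230 to 25058980, had 15 counts in the DMSO and 362 in the periplocin library of K562, and 294 and 209 in those of THP-1. It was 23.0-fold higher in K562 (log2 4.52, interval 3.83 to 5.42), the highest ratio of the list, from a low count in the control. In THP-1 its log2 ratio was -0.26 (-0.52 to -0.00). ACSS2, its relative in cytosol and nucleus, had 1055, 1402, 877 and 568 counts, with log2 ratios of 0.38 and -0.40. ACLY, which makes acetyl-CoA from citrate, had 4308, 3755, 7403 and 4012 counts, and was lower in both lines with log2 ratios of -0.22 (-0.29 to -0.16) and -0.65 (-0.71 to -0.60). The 3 routes to acetyl-CoA therefore had unlike ratios in K562.

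ELOVL6, which lengthens palmitate to stearate, at chromosome 4, 110045846 to 110199199, had 1313 and 2788 counts in the libraries of K562, but only 7 and 4 in those of THP-1. It was 2.08-fold higher in K562 (log2 1.06, interval 0.96 to 1.16). In THP-1 it lay under 1 CPM, so a ratio was not called, and with an interval of -2.80 to 1.40 no difference was detectable at this depth.

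**Figure D3:**
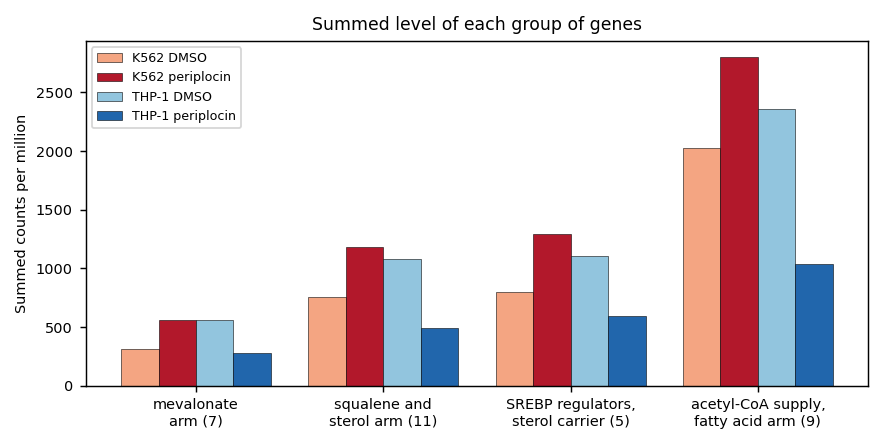
Summed CPM of the genes of each group in the 4 libraries, with the number of genes in brackets and no error bars, since each bar is 1 library. In each group the K562 periplocin bar is above K562 DMSO and the THP-1 periplocin bar is the lowest of the 4.

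Before drug, most of the genes were higher in THP-1. The log2 ratio of THP-1 DMSO over K562 DMSO was above 0 for 21 of the 32 genes (65.6%), against 51.0% of 12845 genes. The median was 0.59 against 0.02 over those genes. Past the fold were 9 genes higher in THP-1 (28.1%) against 22.7% of all genes, and 1 lower (3.12%) against 21.1%. The shares past the fold were thus near the background upward. ACSS1 was at 4.04, FADS2 at 2.87 (2.74 to 3.004), SC5D at 1.78, MSMO1 at 1.35 and INSIG1 at 1.32. The gene below was ELOVL6 at -7.66 (-9.08 to -6.72). HMGCS1 at 1.24, FDPS at 1.12, and CYP51A1 and FASN, both at 1.04, made up the 9. Scaling by library totals alone lowered these values by about the shift of the median, to 0.47, and left 7 genes past the fold.

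In the periplocin libraries the order was the other way around. With all 4 libraries scaled together, 21 genes were higher in THP-1 in the DMSO libraries. The other 11 (34.4%) were higher in K562, against 50.7% of 10779 genes expressed in both lines. In the periplocin libraries 5 were higher in THP-1 and 27 (84.4%) in K562, against 54.1% of 10779 genes expressed in both lines. The median log2 ratio of THP-1 over K562 went from 0.59 to -1.10, while that of all genes went from -0.02 to -0.10. These comparisons share their libraries with the responses above and add no independent measurement.

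A ratio above 1 in K562 together with one below 1 in THP-1 was found for 25 of 31 genes (80.6%) against 19.5% of 10779 genes. PMVK had the opposite pair of signs. The other exceptions were TM7SF2, NSDHL, HSD17B7, EBP and ACLY. Past the fold upward in K562 and downward in THP-1 were LSS, MSMO1 and INSIG1, 3 of 31 (9.68%) against 0.436%. The log2 ratio in K562 was higher by at least 1 for 23 of 31 genes (74.2%) against 9.59%. Its difference between the lines was 3.34 (3.08 to 3.61) for MSMO1, 2.76 (2.65 to 2.87) for INSIG1, 2.74 (2.48 to 2.99) for DHCR7, 2.71 for CYP51A1 and 2.58 (2.39 to 2.78) for LSS. ACSS1 had a difference of 4.78 (3.995 to 5.57), from its low K562 control. The difference interval lay above 0 for 28 of the 31 genes, and no test of it was possible, because no residual degree of freedom is left.

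**Figure D4:**
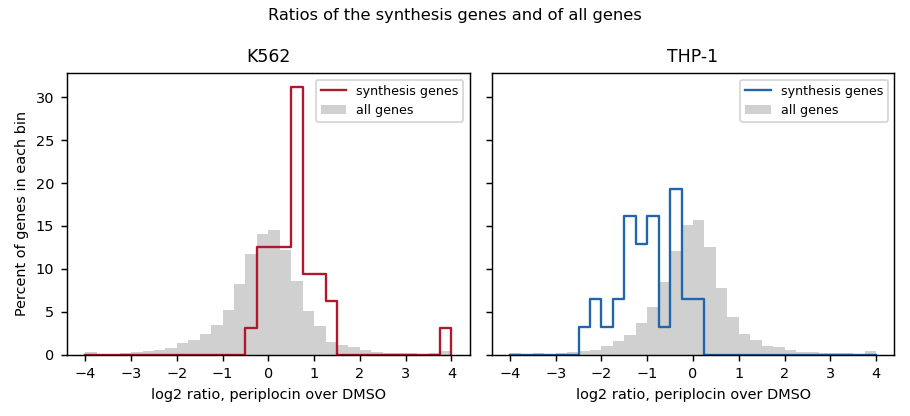
Share of genes in each bin of log2 ratio of periplocin over DMSO, in K562 (left) and THP-1 (right), for the synthesis genes (coloured line) and all genes averaging 1 CPM or more (grey). Ratios beyond the ends of the axis are in the end bins, such as ACSS1 in K562. The coloured line is shifted to the right of the grey in K562, with medians of 0.57 and -0.01, and to the left in THP-1, with medians of -0.999 and -0.02.

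The log2 ratios of the lines did not rise together across the genes. Over the 31 genes they correlated with a Pearson r of 0.02 and a Spearman rho of -0.23, against 0.28 and 0.31 over 10779 genes. The Pearson value includes ACSS1, which was far from the other genes in K562 at 4.52, from 15 control counts, and at -0.26 in THP-1. It was not computed without ACSS1. These are across genes, which share libraries and depth and are not independent. A shared effect of the drug over both lines was fitted with edgeR's quasi-likelihood test, with line and treatment as terms and 1 residual degree of freedom. It called 0 of 13584 genes (0%) at a Benjamini-Hochberg adjusted p of 0.05, with 1535 at an unadjusted p under 0.05. None of the 32 synthesis genes was among the 1535, and the lowest adjusted p among them was 0.571. The error of this fit is how far the responses of the lines differ. Genes with opposite ratios in the lines could therefore hardly pass it. Their absence from the calls adds nothing to the ratios above and does not bear on the response within a line. DESeq2 called 125 genes (1.06%), of which 0 were on the list. The fitted shared log2 effect was under 0.5 in size for 22 of the 32 genes, with a median of -0.20.

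Levels of different genes are compared here as counts per kilobase of the longest transcript, scaled to the same sum in each library. On that scale SCD was highest in K562 DMSO at 375, before FADS1 at 232, FDFT1 at 231 and SQLE at 190, and ACSS1 was lowest at 0.558. SCD led K562 periplocin too, at 484. FDFT1 was highest in THP-1 DMSO at 393, followed by SCD at 344 and SREBF2 at 295, and in THP-1 periplocin at 227. SCD, second in THP-1 DMSO, was at 126 in THP-1 periplocin, behind ACLY at 166 and SREBF2 at 150. With the longest coding transcript as the length, the highest gene of each library was the same. In THP-1 periplocin FDPS, at 151, then came before SREBF2 at 148 and SCD at 117. FADS1 and FDFT1 in K562 DMSO are too close to be put in order without replicates.

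Genes around the pathway were counted in lists made for comparison, with the largest ratios among the well expressed ones named. Of all genes, 8.83% were past the fold upward and 11.5% downward in K562, and 8.01% and 10.4% in THP-1. Of 14 other sterol and isoprenoid genes, 2 were past the fold upward and 1 downward in K562 (median log2 ratio -0.06), and 1 and 3 of 13 in THP-1 (0.18). NPC2, a lysosomal cholesterol carrier, was higher in both lines, with 717 and 1719 counts in K562 and 1204 and 2492 in THP-1. TMEM97, a sterol-responsive membrane protein, was lower in both, with 1141 and 676 counts and 1032 and 322 counts. FAXDC2, a relative of MSMO1, was at 3.26 in K562, from 918 to 8965 counts, and had at most 10 counts in THP-1. PDSS1, of coenzyme Q synthesis, was at -1.14 in K562, with 284 and 131 counts. It was lower in THP-1 too, with 291 and 82 counts. In THP-1 ERG28, which tethers sterol enzymes, was at -1.06 and LBR, a sterol reductase of the nuclear membrane, at 0.50.

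Of 8 genes of SREBP processing and degradation, 1 was past the fold in each direction in K562 (median -0.09) and 0 in THP-1 (-0.05). RNF145, a ubiquitin ligase, was at 1.21 in K562 and 0.67 in THP-1. In K562 MBTPS2, a protease that releases SREBPs, was at -1.13, ERLIN2 at -0.90 and INSIG2, the relative of INSIG1, at -0.27. In THP-1 ERLIN1 was at -0.92, ERLIN2 at -0.29 and MBTPS1, the other protease, at 0.38. RNF145 and MBTPS2 in K562 were thus the 2 past the fold.

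Of 26 other fatty acid synthesis genes, 1 was past the fold upward and 3 downward of 21 in K562 (median -0.11), and 2 each way of 23 in THP-1 (-0.05). ACSL1, an acyl-CoA synthetase, was at -1.53 in K562 and 1.88 in THP-1, the opposite of most synthesis genes. In K562 ACACB, the mitochondrial relative of ACACA, was at -1.64, and the elongation enzymes TECR and ELOVL1 at 1.25 and 0.996. In THP-1 SLC25A1, the mitochondrial citrate carrier, was at -1.29, and the elongation enzymes HACD2 and ELOVL5 at 1.06 and -0.88.

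Of 14 fatty acid oxidation genes, 2 were past the fold upward and 1 downward in K562 (median 0.32), and 1 each way in THP-1 (0.02). In K562 the carnitine shuttle genes SLC25A20, CPT1A and CPT2 were at 1.12, 1.03 and -1.06, and ETFDH, which passes electrons to ubiquinone, at 0.89. In THP-1 ETFDH was at 1.07, SLC25A20 at 0.61, ETFB at 0.49 and ECI1 at -0.42. Of 5 genes of sterol export and the LXR receptors, 1 of 3 was past the fold upward in K562 (0.96) and 2 of 5 in THP-1 (0.44). ABCA1, the cholesterol exporter, had 756 and 1778 counts in THP-1 (1.46). NR1H2, which encodes an LXR, was at 0.96 in K562 and 0.44 in THP-1, and MYLIP, a ubiquitin ligase under LXR, at 1.18 and -0.15.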

How the data were processed

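Poly-A RNA of K562 and THP-1 cells was sequenced, 1 library for each of 4 conditions. The authors deposited 1 table of expected counts by gene and library, without normalization or pooling, of which 87.4% to 88.3% were whole in each library. The submitters' processing notes name hg38, HISAT2 and StringTie 1.3.1, and the counting program and annotation are not given in the sources used here. The labels name an Illumina instrument and the methods of the study another platform. Dose and time come from the methods. Values were rounded to whole counts, and 0 columns were left out. Positions and lengths came from GENCODE release 29 (20118 of 20348 identifiers found), and promoters from RefSeq on GRCh38.p14.

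Ratios within a pair of libraries used TMM factors from edgeR 4.0.16 in R 4.3.3 and a prior count of 0.5. Their 95% intervals are exact conditional Clopper-Pearson ones, and those of the difference between the lines are normal ones from the counts. Both cover counting error only. No p-value was given within a line. The shared effect was limited to genes that reached 10 counts in 2 or more libraries, with DESeq2 1.42.0 as the alternative, and 1844 genes without its adjusted p stayed out. Scripts were tested on simulated data. All 32 genes were named, and from each other list the genes with the largest ratios, up to 4 per line, among those averaging 10 CPM or more. The genes and lists were chosen with earlier results of these data known. Alternatives were other scalings, filters and fold thresholds.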

Additional observations from a re-analysis of the deposited data

Results flagged for a closer look

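LSS, MSMO1 and INSIG1 differed by at least 2-fold in opposite directions in the lines. The log2 ratio of periplocin over DMSO was higher in K562 than in THP-1 by 2.58 for LSS, 3.34 for MSMO1 and 2.76 for INSIG1. With 1 library per condition this difference was not tested. A ratio above 1 in K562 and below 1 in THP-1, without regard to size, was seen for 25 of 31 genes, against 19.5% of 10779 genes.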

How the results depend on the processing

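Scaling and filters left the K562 count at 5 to 6 genes higher and the THP-1 count at 15 to 16 lower. At a 1.5-fold threshold 16 of 32 were higher in K562 (19.0% of all genes) and 21 of 31 lower in THP-1 (21.2%), and at a 4-fold threshold 1 (1.94%) and 3 (1.85%). Among genes with no overlapping coding gene and whole counts, a choice made after seeing the data, 9 of 21 were lower in THP-1. For THP-1 DMSO against K562 DMSO, 16 were higher (31.5% of all genes) and 2 lower (30.2%) at 1.5-fold, and 2 were higher (13.9%) at 4-fold. The median of that comparison was 0.47 with library totals alone, 0.47 without mitochondrially encoded genes and 0.71 in the genes without overlap. The cause of these shifts was not tested. The shared effect called 125 genes with DESeq2 and 1 with no filter on low counts, against 0. No ratio past the fold changed sign under the scalings run. Within the fold NSDHL in K562 did, from -0.02 to 0.0034 with DESeq2 size factors, which makes 28 genes above 0. No paired analysis was possible because each condition has 1 library, other than the fit over both lines, in which line is a term and the lines are the pairs. For the same reason no replicate could be left out. Counting error limits genes with few counts, such as ELOVL6 in THP-1 and ACSS1 in K562 DMSO.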
